A study of Mus musculus with 2 samples.

Results

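The genes described here are those of oligodendrocytes, the cells that wrap axons of the brain in myelin, and of the precursors they arise from. They were taken from a list of 38 gene symbols and required a probe set (the group of short probes that reports a transcript on the array) annotated to exactly that symbol. Of the 38 genes, 37 met this requirement among 18193 genes on the arrays, and each was represented by whichever of its probe sets was brightest on average. Trf, which encodes transferrin, is annotated together with another gene and was left without a value.

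Cortical RNA of WT mice and of P4H-TM KO littermates, which lack a transmembrane prolyl hydroxylase of the endoplasmic reticulum, was measured on Affymetrix Mouse Genome arrays. All animals were naive males of the strain C57BL/6J aged 2.5 months, and the RNA of 4 mice was pooled on 1 array per genotype. The labels name the tissue as cortical and do not state whether white matter was included. No difference has a replicate check or an error between animals, so sizes are given without a test, and in whole tissue fewer cells of a type cannot be told apart from less RNA per cell. P4htm, the targeted gene, had a log2 expression of 11.05 in WT against 9.10 in P4H-TM KO. The 3′ minus 5′ signal of the array controls, a sign of RNA integrity, was 0.85 in WT against 0.82 in P4H-TM KO for Actb, and 0.38 and 0.35 for Gapdh. Levels below are RMA log2 values, and a difference is P4H-TM KO minus WT.

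Myelin is a stack of oligodendrocyte membrane that is held together by a small set of abundant proteins and is rich in cholesterol and galactolipids. Oligodendrocytes form from proliferating precursors throughout adult life, under the control of transcription factors of which OLIG1, OLIG2 and SOX10 act early and MYRF switches on the myelin genes. The genes were therefore ordered as myelin structure, lipid synthesis, transcription factors, precursors and other oligodendrocyte genes.

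Across these roles, 34 of the 37 genes were below WT in P4H-TM KO and 3 were above it. The median difference was −0.18, which is 1.13-fold lower, whereas the median of all 18193 genes was 0.00. Of all genes, 49% were below WT and 46% above it. Differences of at least 1.2-fold, a size chosen with the results known, were found downward for 11 genes and upward for 0, and 0 genes reached 1.5-fold. Among all genes, 4.91% were at least 1.2-fold lower, 4.12% at least 1.2-fold higher and 0.148% at least 1.5-fold lower. All 37 genes had a mean signal of at least 6.385, the median over probe sets, and of the 11730 genes this bright 45.2% were below WT and 1.83% were at least 1.2-fold lower. The spread between probe sets of the same gene was a pooled SD of 0.10 over 5101 genes. This SD describes how probe sets of these arrays differ and not how animals differ.

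**Figure D1:**
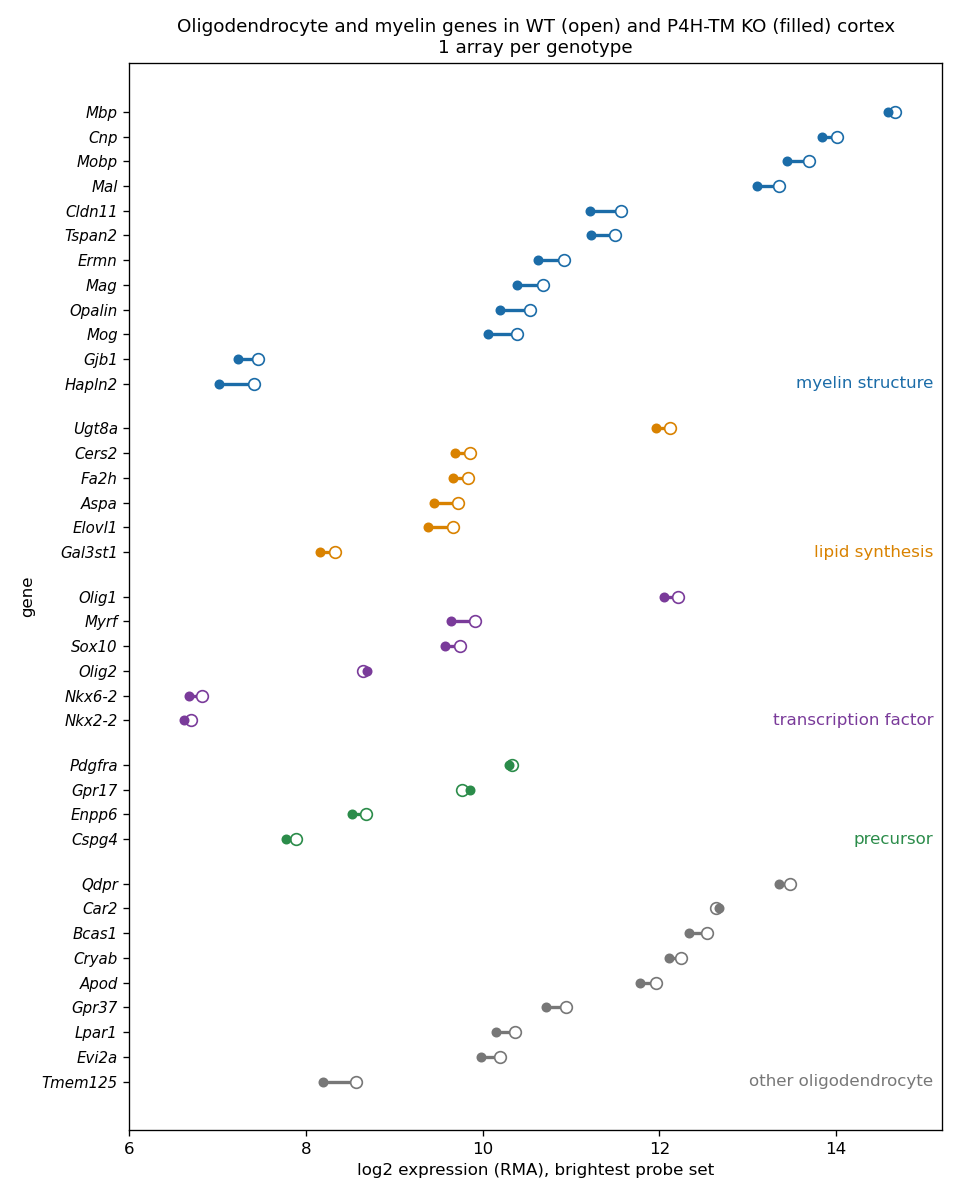
Log2 expression of each gene on the horizontal axis in the WT array (open circles) and the P4H-TM KO array (filled circles), with 1 row per gene grouped by role and ordered by level; error bars are absent, as each genotype has a single array. The filled circle lies to the left of the open circle in 34 of 37 rows, and to the right for Olig2, Gpr17 and Car2.

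The genes of myelin structure were below WT in P4H-TM KO throughout, in 12 of 12 cases, and had a median difference of −0.28 and a range from −0.40 to −0.08. Of the 12 genes, 7 were at least 1.2-fold lower. Mog, whose product sits on the outermost myelin layer, had 10.39 in WT against 10.06 in P4H-TM KO, a difference of −0.33. Mag, which encodes an adhesion molecule facing the axon, had 10.68 and 10.39, a difference of −0.29. Cldn11, which encodes the claudin of the tight junctions between myelin layers, had 11.56 and 11.22, a difference of −0.34. These surface and junction genes thus lay close together, between 1.22-fold and 1.27-fold lower in P4H-TM KO.

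Opalin, which encodes a transmembrane glycoprotein specific to oligodendrocytes, had 10.53 in WT against 10.19 in P4H-TM KO, a difference of −0.34. Ermn, which encodes the cytoskeletal protein ermin, had 10.92 and 10.63, a difference of −0.29. Tspan2, a tetraspanin gene, had 11.50 and 11.23, a difference of −0.27 that lies just past 1.2-fold. On their brightest probe sets, these genes of membrane and cytoskeleton thus had differences close to those of the surface genes. The other probe set differed by −0.12 for Ermn and, at low signal, by −0.58 for Opalin, and those of Tspan2 by −0.35 and −0.36. Hapln2, whose product links the matrix at nodes of Ranvier, had the lowest difference of all 37 genes, −0.40, with 7.41 in WT against 7.01 in P4H-TM KO. Its other probe set gave 6.66 and 6.65, a difference of −0.01, so the brighter probe set alone carries that value. Gjb1, which encodes a connexin of myelin, had 7.46 and 7.23, a difference of −0.23.

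The brightest genes of the set differed by −0.25 to −0.08. Mbp, which encodes the basic protein that compacts the cytoplasmic faces of myelin, had 14.67 in WT against 14.59 in P4H-TM KO, a difference of −0.08 close to the top of the measured range of 14.91. Cnp, which encodes a cyclic nucleotide phosphodiesterase of myelin, had 14.01 and 13.84, a difference of −0.17. These abundant messages were below WT by less than Mog, Mag or Cldn11. Mobp, which encodes another basic protein of central myelin, had 13.69 and 13.45, a difference of −0.24. Mal, which encodes a proteolipid of membrane rafts, had 13.36 and 13.11, a difference of −0.25. Genes of this brightness differed little between the arrays in general. Of 215 genes with a mean of at least 13, Mal had the lowest difference, Mobp ranked 2, Cnp ranked 4, Qdpr shared rank 6 and Mbp shared rank 14. Of the 3526 genes with a mean of at least 10, 0.51% were at least 1.2-fold lower, which are 18 genes, and 6 of the 21 oligodendrocyte genes of that brightness were among them. Both cuts on brightness were chosen after the values were seen.

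**Figure D2:**
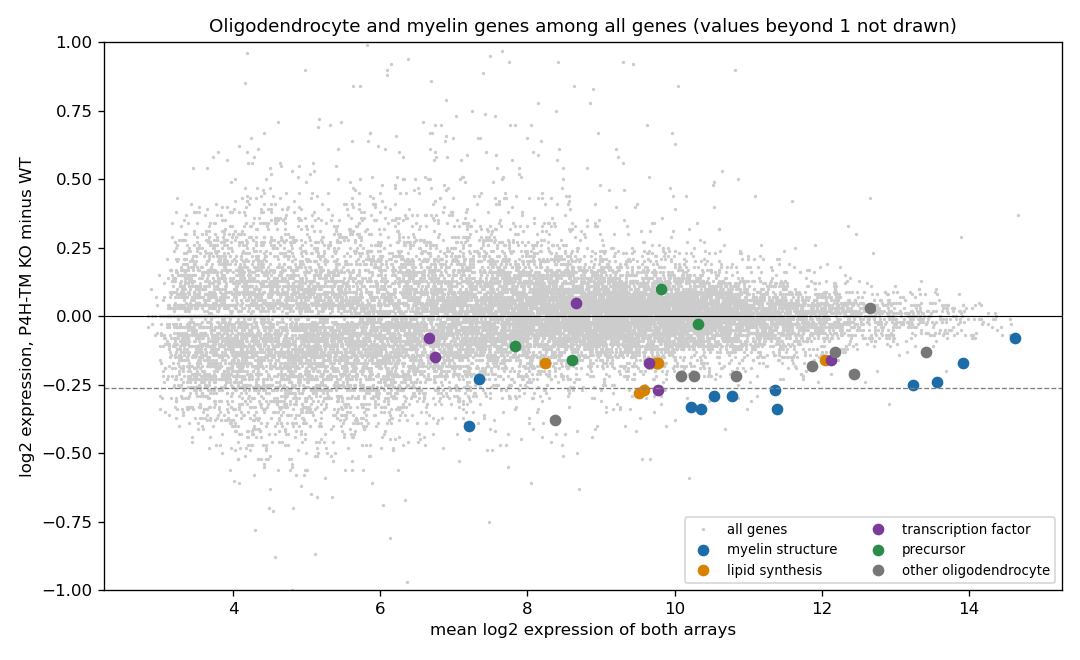
Log2 difference (P4H-TM KO minus WT) against the mean log2 expression of both arrays, for all genes (grey) and for the oligodendrocyte genes coloured by role; the dashed line marks 1.2-fold lower and values beyond 1 are not drawn. The grey cloud narrows with rising signal, and most coloured points between 10 and 14 lie along its lower edge.

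Promoters are shown for the 7 genes of myelin structure that were at least 1.2-fold lower, chosen by that size and not by their motifs, and for the precursor gene Pdgfra, which differed by −0.03, because Sox10 and Myrf are themselves among the genes measured. The sequences are the 250 bases before the annotated start, from RefSeq on GRCm38.p6. On the minus strand lie Mog at chr17:37023399-37023648, Mag at chr7:30914864-30915113, Opalin at chr19:41077114-41077363, Ermn at chr2:58052865-58053114 and Hapln2 at chr3:88027512-88027761. On the plus strand lie Cldn11 at chr3:31149670-31149919, Tspan2 at chr3:102734520-102734769 and Pdgfra at chr5:75152001-75152250. Capitals mark ACAAAG, a core bound by SOX proteins, and CTGGCAC, a core bound by MYRF, on either strand. Mag has 3 annotated starts and Tspan2 has 2, and the upstream sequence of the first in the table is given for each.
Mog: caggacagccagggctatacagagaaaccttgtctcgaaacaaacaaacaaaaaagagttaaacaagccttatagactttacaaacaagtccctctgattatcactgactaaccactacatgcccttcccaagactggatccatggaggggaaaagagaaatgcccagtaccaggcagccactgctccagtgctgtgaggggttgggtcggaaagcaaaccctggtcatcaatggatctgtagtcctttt
Mag: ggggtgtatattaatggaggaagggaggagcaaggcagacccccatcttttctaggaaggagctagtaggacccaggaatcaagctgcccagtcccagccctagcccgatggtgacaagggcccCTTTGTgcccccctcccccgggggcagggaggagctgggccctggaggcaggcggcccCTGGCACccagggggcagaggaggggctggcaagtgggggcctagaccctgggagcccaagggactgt
Cldn11: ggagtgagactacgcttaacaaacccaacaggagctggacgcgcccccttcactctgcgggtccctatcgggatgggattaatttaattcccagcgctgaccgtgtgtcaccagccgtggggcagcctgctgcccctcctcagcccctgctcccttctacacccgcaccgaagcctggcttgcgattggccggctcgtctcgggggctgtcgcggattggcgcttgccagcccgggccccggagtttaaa
Opalin: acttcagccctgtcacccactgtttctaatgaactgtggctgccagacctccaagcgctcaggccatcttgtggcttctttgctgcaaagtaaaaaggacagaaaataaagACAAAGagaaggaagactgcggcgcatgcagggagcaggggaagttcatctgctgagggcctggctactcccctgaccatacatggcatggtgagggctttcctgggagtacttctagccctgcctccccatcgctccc
Ermn: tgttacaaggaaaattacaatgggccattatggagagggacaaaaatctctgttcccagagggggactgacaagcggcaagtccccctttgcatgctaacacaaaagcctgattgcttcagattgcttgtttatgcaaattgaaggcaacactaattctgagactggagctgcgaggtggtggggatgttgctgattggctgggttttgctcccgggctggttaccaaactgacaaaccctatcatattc
Tspan2: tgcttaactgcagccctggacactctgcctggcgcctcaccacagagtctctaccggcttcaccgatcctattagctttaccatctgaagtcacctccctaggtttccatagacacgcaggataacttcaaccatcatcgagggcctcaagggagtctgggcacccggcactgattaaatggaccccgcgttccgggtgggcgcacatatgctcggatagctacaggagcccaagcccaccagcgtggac
Hapln2: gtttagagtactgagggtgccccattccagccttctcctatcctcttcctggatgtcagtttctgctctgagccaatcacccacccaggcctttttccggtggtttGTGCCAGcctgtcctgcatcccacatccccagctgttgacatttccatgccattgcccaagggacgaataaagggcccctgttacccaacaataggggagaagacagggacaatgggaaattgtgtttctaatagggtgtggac
Pdgfra: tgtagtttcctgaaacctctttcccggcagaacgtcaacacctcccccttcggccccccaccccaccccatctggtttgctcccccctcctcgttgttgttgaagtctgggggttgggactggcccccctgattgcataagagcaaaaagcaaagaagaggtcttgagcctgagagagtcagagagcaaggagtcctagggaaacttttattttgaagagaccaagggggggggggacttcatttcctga
The sequences of Mag and Opalin held 1 copy of ACAAAG each, and those of Mog, Cldn11, Ermn, Tspan2, Hapln2 and Pdgfra held 0. CTGGCAC occurred 1 time each upstream of Mag and Hapln2. ACAAAG and CTGGCAC were thus both absent from 4 of the 7 structural sequences shown as well as from that of Pdgfra. This absence covers these exact letters only. Of these 4, Mog held CTGGTAC, a close variant of CTGGCAC, and Ermn held ACAATG, a close variant of ACAAAG. Hapln2 held ACAATG as well. Tspan2 is among these 4, but the sequence upstream of its other start, not shown, held ACAAAG. For 27 of the 37 genes the reference table gave 39 upstream sequences, of which 28.2% held ACAAAG and 12.8% held CTGGCAC, against 16.5% and 4.19% of all 32851 sequences of this length. Of the 39, the 11 with ACAAAG came from 8 genes and the 5 with CTGGCAC from 4 genes. A gene with several starts can thus count more than once, and the shares were not tested. Of the other cores searched on both strands, ACAATG occurred in 20.5% against 10.7%, CTGGTAC in 2.56% against 1.83%, CAGCTG in 7.69% against 13.0% and CATATG in 7.69% against 3.46%. ACAAAG and CTGGCAC matches did not overlap in the sequences shown. These matches describe the letters only, and binding was not measured.

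The genes of myelin lipid synthesis lay below WT in 6 of 6 cases, and their median difference was −0.17, with a range from −0.28 to −0.16. Ugt8a, whose product makes galactosylceramide, had 12.12 in WT against 11.96 in P4H-TM KO, a difference of −0.16, while its other, dimmer probe set differed by −0.03. Gal3st1, whose product turns it into sulfatide, had 8.33 and 8.16, a difference of −0.17. Fa2h, which encodes the enzyme that hydroxylates the fatty acids of these lipids, had 9.83 and 9.66, and Cers2, the ceramide synthase gene for very long chains, had 9.86 and 9.69. Each of the latter genes also differed by −0.17, so the galactolipid and ceramide genes had nearly the same difference on their brightest probe sets.

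Elovl1, which encodes an elongase of very long fatty acids, and Aspa, whose product releases acetate for lipid synthesis from N-acetylaspartate, were the 2 lipid genes at least 1.2-fold lower. Elovl1 had 9.66 in WT against 9.38 in P4H-TM KO, a difference of −0.28, but its probe set without the _x_ suffix, which marks probes that can match other transcripts, differed by −0.03. Aspa had 9.72 and 9.45, a difference of −0.27, on its only probe set.

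The transcription factor genes had a median difference of −0.155, and 5 of 6 lay below WT. Myrf, the regulator of the myelin programme in differentiating cells, was the 1 member at least 1.2-fold lower, with 9.91 in WT, 9.64 in P4H-TM KO and a difference of −0.27. Sox10, needed from the precursor onward, had 9.74 and 9.57, a difference of −0.17, while a dimmer probe set differed by 0.03. Olig1 had 12.21 and 12.05, a difference of −0.16. Of the factors, Olig2 alone lay above WT. This relative of Olig1, which specifies the lineage, had 8.64 and 8.69, a difference of 0.05 within the spread between probe sets. Nkx6-2 and Nkx2-2, homeobox genes of maturing and early oligodendrocytes, lay near the median of all probe sets at 6.82 and 6.70 in WT, with differences of −0.15 and −0.08.

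Precursor genes showed the smallest differences of the groups, with a median of −0.07, a range from −0.16 to 0.10 and 0 of 4 genes at 1.2-fold. Pdgfra, which encodes the growth factor receptor that defines precursors, had 10.33 in WT against 10.30 in P4H-TM KO, a difference of −0.03. Cspg4, which encodes the NG2 proteoglycan of the same cells, had 7.88 and 7.77, a difference of −0.11, and its other probe set had 7.43 and 7.55, a difference of 0.12 in the opposite direction. Both defining precursor genes therefore lay near 0 or without a settled direction. Gpr17, a receptor gene of committed precursors, had the highest difference of all 37 genes, 0.10, with 9.76 and 9.86. Enpp6, a phosphodiesterase gene of newly forming oligodendrocytes, had 8.68 and 8.52, a difference of −0.16 that recurred as −0.15 on its other probe set. With all probe sets averaged the median of the group was 0.0125, so its direction depends on the choice of probe set. The structural genes ranged from −0.40 to −0.08, so the ranges of the groups overlapped. Cnp at −0.17 lay next to the lowest precursor value, that of Enpp6, and Mbp lay within the precursor range, which rests on 4 genes. Whether the groups differ could not be tested with 1 array per genotype.

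The other oligodendrocyte genes had a median difference of −0.21, and 8 of 9 lay below WT. Tmem125, which encodes a transmembrane protein, had 8.57 in WT against 8.19 in P4H-TM KO, a difference of −0.38, and its other probe set differed by −0.31. The receptor genes Gpr37 and Lpar1, the latter for lysophosphatidic acid, and the membrane protein gene Evi2a each had a difference of −0.22. Bcas1, a gene of early myelinating cells, had 12.54 and 12.33, a difference of −0.21. Apod, which encodes a lipid carrier, had 11.96 and 11.78, a difference of −0.18. The genes of this group closest to 0 encode enzymes and a chaperone. Qdpr, whose product regenerates tetrahydrobiopterin, and Cryab, which encodes a small heat shock protein, each had a difference of −0.13, and Car2, a carbonic anhydrase gene, had 12.64 and 12.67, a difference of 0.03.

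The values above did not come from the other probe sets of these genes, whose signals entered only the choice of the brightest. These other probe sets give a further reading of the same RNA. For 22 genes with several probe sets, 33 of 40 other probe sets were below WT and 7 above it, and their median difference was −0.145. Of these 40, 11 lay below the median signal, and of the 29 at or above it 24 were lower and 5 higher. All probe sets were lower for 17 of the 22 genes. The same shares over the other probe sets of all genes were not computed. Mobp had differences from −0.48 to −0.23 over 5 probe sets, Tspan2 from −0.36 to −0.27 over 3, Lpar1 from −0.25 to −0.19 over 3 and Cnp from −0.19 to −0.14 over 3. Mbp was the least uniform. Of its 8 probe sets, 6 were lower in P4H-TM KO, by −0.19 at most, whereas a pair of dimmer ones was higher, with 9.90 in WT against 10.15 in P4H-TM KO on one and 8.43 and 8.59 on the other, differences of 0.25 and 0.16. Which Mbp transcripts these probe sets report was not examined here. Among probe sets at or above the median signal, values in P4H-TM KO above WT were otherwise found for Sox10, Cspg4 and Cryab.

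**Figure D3:**
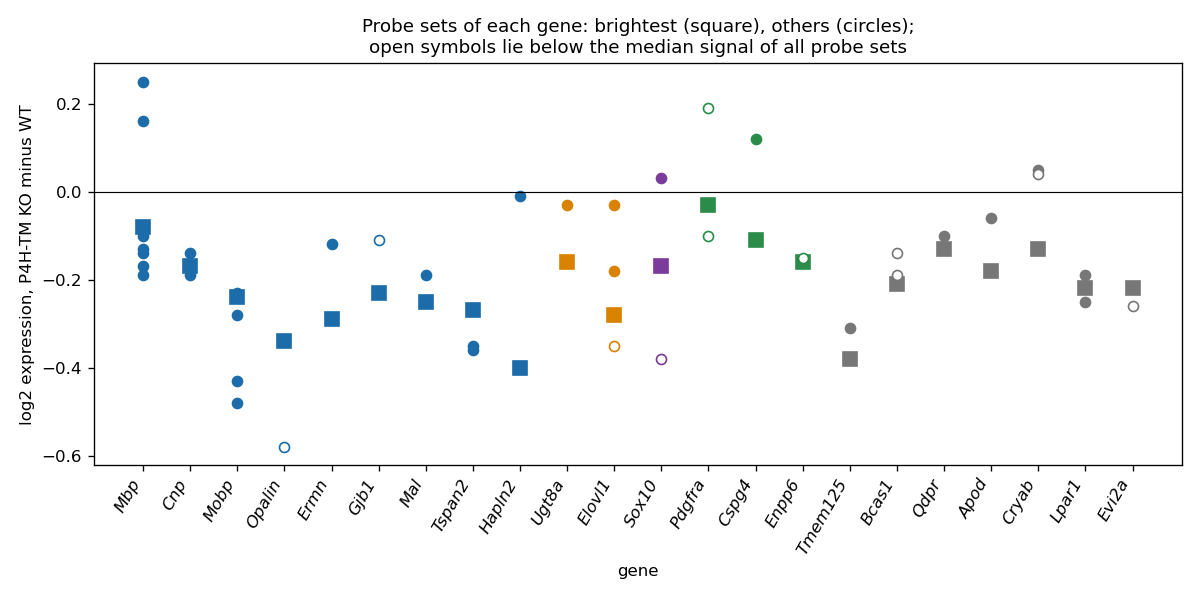
Log2 difference (P4H-TM KO minus WT) of every probe set of the genes that have several, with the brightest as a square and the others as circles; open symbols lie below the median signal of all probe sets and colours give the role of the gene. All 5 probe sets of Mobp lie below 0, and those of Mbp range from −0.19 to 0.25.

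Further genes of the same lineage were read from lists that hold 0 of these genes. Of 52 other genes of mature oligodendrocytes, 44 were below WT and 7 above it, the median difference was −0.18, and 13 were at least 1.2-fold lower. S1pr5, which encodes a sphingosine-1-phosphate receptor, had 8.74 in WT against 8.23 in P4H-TM KO, a difference of −0.51. Gjc3, a glial connexin gene, had 7.94 and 7.47, a difference of −0.47, but 0.00 on its other probe set. Tmem98, which encodes a membrane protein that binds MYRF, and Insc, a spindle orientation gene, had the highest differences, 0.24 and 0.12. Genes of committed precursors and newly formed oligodendrocytes had a median of −0.09 over 15 genes, with 10 lower, and ranged from Sox8 at −0.20 and Tnr at −0.16 to Rap2a at 0.10 and Bmp4 at 0.33. Other precursor genes had a median of 0.05 over 21 genes, with 7 lower and 14 higher. Vcan and Bcan, proteoglycan genes, had −0.28 and −0.09, and the Sox genes Sox6 and Sox11 had 0.20 and 0.27. Whether these lists differ from each other was not tested, and the precursor median lies within the pooled SD between probe sets.

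Lipid genes that many cell types use had medians at or near 0, while the myelin lipid genes had −0.17; this contrast was not tested. Cholesterol synthesis genes had a median of 0.00 over 19 genes, with 9 lower and 9 higher, from Lss, the lanosterol synthase gene, at −0.20 and Mvk at −0.09 to Sqle at 0.13 and Fdps at 0.15. Other sphingolipid and fatty acid genes had a median of 0.03 over 25 genes, with 9 lower and 16 higher. Scd1, a desaturase gene, and Acaca, which encodes acetyl-CoA carboxylase, had −0.15 and −0.07, Tecr had 0.18, and Sgms2, a sphingomyelin synthase gene, had 0.60 on one probe set and −0.25 on the other. All of these medians lie within 0.03 of the median of all genes.

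Other cell types that a piece of cortex can hold were read in the same way, with the lowest and highest genes above the median signal given for each. Neuron genes had a median difference of −0.01 over 17 genes, from Nefm at −0.12 and Camk2a at −0.08 to Slc17a7 at 0.03 and Stmn2 at 0.04. Microglia genes had −0.02 over 13 genes, from Ctss at −0.14 and Csf1r at −0.08 to Fcrls at 0.11 and Cd68 at 0.17. Endothelial genes had 0.01 over 9 genes, from Abcb1a at −0.07 and Flt1 at 0.00 to Tek at 0.19 and Cdh5 at 0.25. On its other probe set Cdh5 differed by −0.28. The neuron, microglia and endothelial lists thus had medians close to that of all genes. Astrocyte genes had −0.06 over 14 genes, with 11 lower, from Gjb6 at −0.23 and Acsbg1 at −0.14 to Slc1a3 and Aldoc at 0.04. The 6 probe sets of Slc1a3 ranged from −0.40 to 0.06. Schwann cell genes, which mark myelin of peripheral nerve, had a median of 0.00 over 7 genes and ranged widely, from −0.49 to 1.35, with 1 gene at least 1.2-fold lower and 2 at least 1.2-fold higher. Cdh19 differed by −0.49, and Pmp22 and Drp2 by −0.02 and 0.03. Below the median signal, Egr2, which is also an immediate early gene of neurons, had 5.08 in WT against 6.43 in P4H-TM KO, a difference of 1.35, Ncmap differed by 0.39, Foxd3 by −0.03 and Pmp2 was at 5.13 on both arrays. On their brightest probe sets, none of the neuron, astrocyte, microglia and endothelial genes was 1.2-fold lower. Among all genes at or above the median signal this share was 1.83%, so such a count in short lists lies near that share.

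Genes of tissues that border the cortex had values above WT in the same pair of arrays. Choroid plexus genes were higher in P4H-TM KO in 12 of 12 cases, from Ttr at 0.37 and Tmem72 at 0.86 to Kcne2 at 2.13 and Kcnj13 at 2.21, with a median of 1.55. Their mean log2 level was 7.84 in WT and 9.29 in P4H-TM KO. Meninges genes were higher in 12 of 14 cases, with a median of 0.28 and, above the median signal, values from Slc22a6 at −0.01 and Foxc1 at 0.09 to Dcn at 0.90 and Slc13a4 at 0.93, and their mean log2 level was 8.16 in WT and 8.50 in P4H-TM KO. Dcn differed by 0.10 on its other probe set, and the 4 probe sets of Ttr ranged from 0.37 to 0.96. The part of the choroid plexus and meninges differences in the lower oligodendrocyte values was not tested.

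**Figure D4:**
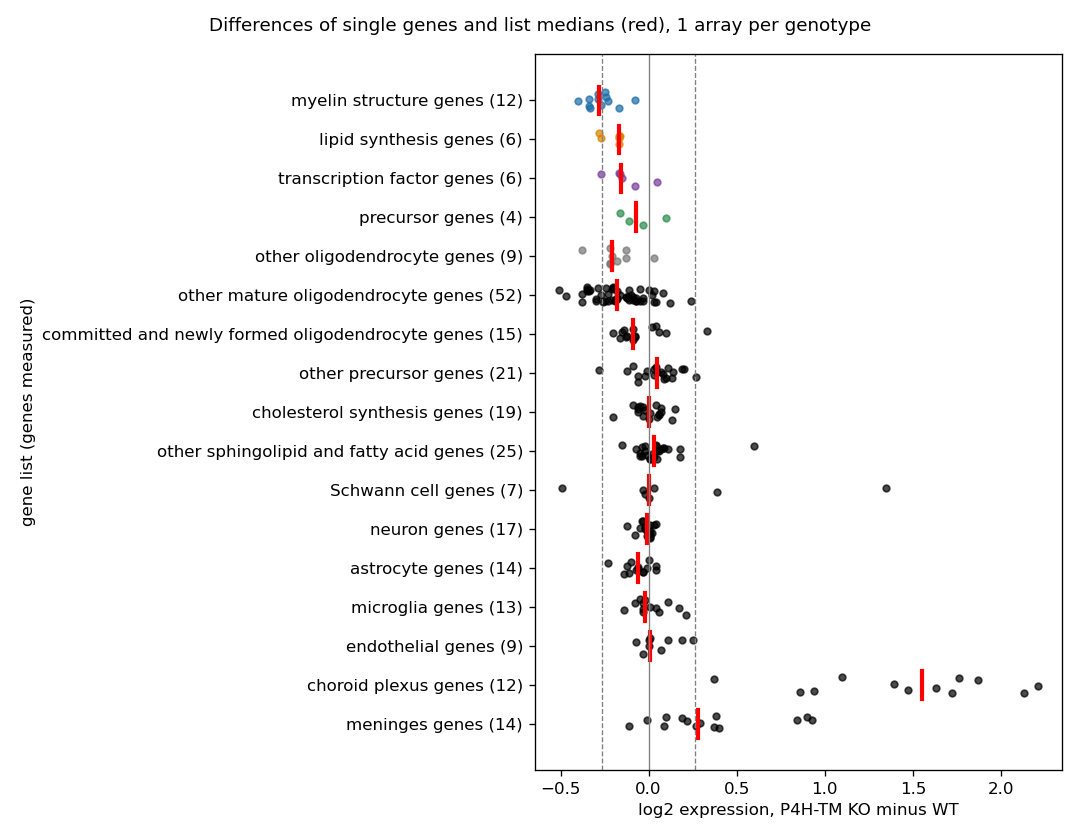
Log2 difference (P4H-TM KO minus WT) of each measured gene, with 1 point per gene, for the oligodendrocyte groups (coloured) and the comparison lists (black); red bars are medians, dashed lines mark 1.2-fold in either direction, and error bars are absent, as each genotype has a single array. The median lies at −0.28 for myelin structure, 0.05 for other precursor genes, −0.01 for neurons and 1.55 for choroid plexus.

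Of the 37 genes, Mobp, Cspg4 and Cryab lie on chromosome 9, which also carries P4htm. Without them, a choice made after the values were seen, the median difference of the other 34 genes was −0.195.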

How the data were processed

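Cortical RNA of 2 genotypes was measured on 1 Affymetrix Mouse Genome array each. The authors quantified the scans in the GeneChip Operating System, with normalization in GenePattern, RMA is named in the submitters' processing notes, and versions are not given in the sources used here. The deposited values are log2 expression rounded to 2 decimals, with array medians of 6.38 (WT) and 6.39 (P4H-TM KO). RMA equalizes the distributions of the arrays, so differences are relative to all probe sets, and signals near the upper end can be compressed. The number of arrays limits the precision.

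Of 45101 probe sets, 34958 have 1 symbol by the platform annotation, 932 have several and the other 9211 are not named here; the 64 controls were left out of gene values. All 38 symbols of the list matched the RefSeq table of GRCm38.p6. The genes named are the members, P4htm and the 2 highest and 2 lowest genes above the median signal of each of 12 comparison lists, of which Schwann cell genes had 3; the other 4 Schwann cell genes were added after their values were seen. Members, groups, lists and the 1.2-fold size were chosen with earlier results of these data known. Alternatives combined probe sets otherwise, centred the arrays, removed the trend with signal (loess, span 0.3) or filtered on signal. The code was tested on simulated data. Values were computed with pandas 2.3.3, numpy 2.4.6 and statsmodels 0.14.6 and drawn with matplotlib 3.10.9 under Python 3.11.15.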

Additional observations from a re-analysis of the deposited data

How the results depend on the processing

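The median over the 37 genes, −0.18, ranged from −0.195 to −0.17 under 7 alternatives, of which leaving out chromosome 9 was chosen after the data were seen. The number of lower genes, 34, ranged from 31 to 34, and the 11 genes at least 1.2-fold lower numbered 8 to 11, or 0 at 1.5-fold. The filter on signal could not change these values, as all 37 genes pass it, and centring shifts every gene alike. With the second brightest probe set, the medians became −0.21 for myelin structure, 0.00 for precursors, −0.145 for other mature oligodendrocyte genes, 1.095 for choroid plexus and 0.215 for meninges. With probe sets averaged they became 0.0125 for precursors, −0.0475 for committed and newly formed oligodendrocyte genes and 1.24 for choroid plexus, which had 1.43 without probe sets of the _x_ and _s_ kinds (those whose probes may hit further transcripts) and 1.63 above the median signal. The P4htm difference of −1.95 was −1.795 averaged and −1.64 on its other probe set, also the value without the _x_ and _s_ kinds. Why these values moved was not tested. Of 185 alternative values of single member genes, 170 stayed within the pooled SD between probe sets and 15, of 10 genes, did not. Many of the 170 had little room to move. The 15 genes with 1 probe set keep their value however probe sets are chosen. Centring the arrays and removing the trend moved every member by less than this SD. No paired analysis was possible because there is 1 array per genotype, for which reason no sample could be left out either. Rounding to 2 decimals makes medians close to 0 coarse, and the arrays give no estimate of the spread between animals.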
